A study of Mus musculus with 8 samples.

Results

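The genes described here encode the folding machinery of the endoplasmic reticulum (ER) and the stress response that adjusts it. They are 33 of the 23597 genes in the deposited table of mouse corneal transcripts, chosen by symbol from a list of ER chaperones, sensors of unfolded protein, targets of the transcription factor ATF4 and genes of ER-associated degradation (ERAD). All 33 symbols were found, and 32 passed the filter on low values, a mean of at least 0.5 FPKM over the 8 libraries (fragment counts divided by gene length and by depth). Derl3 was the exception. Each library was made from 4 pooled corneas of dry eye mice on day 14 of injections of scopolamine, an antagonist of muscarinic acetylcholine receptors. The donors of 4 libraries (ICI) were given scopolamine together with ICI 118551, which blocks β2-adrenergic receptors, and those of the other 4 (Scop) scopolamine alone. Both groups had dry eye and no cornea of untreated mice was analysed here, so no value below is relative to healthy tissue. Strain, sex, age, dose and the way the drug was given are not stated in the sources used here, nor whether pools of a group came from separate mice. The p-values therefore reflect the spread among these 8 pools, which may be technical.

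Secreted and membrane proteins are folded in the ER by chaperones such as BiP (Hspa5), GRP94 (Hsp90b1), calreticulin (Calr) and calnexin (Canx), and their disulfide bonds are set by isomerases of the PDI family. When unfolded protein builds up, 3 sensors of the ER membrane respond. IRE1 (Ern1) splices the mRNA of Xbp1, ATF6 (Atf6) is cleaved to release a transcription factor, and PERK (Eif2ak3) slows translation and raises the synthesis of ATF4. ATF6 and XBP1 then induce chaperones and ERAD genes, while ATF4 induces genes of amino acid supply and stress. The corneal epithelium renews its surface layers continually and makes membrane mucins, junction proteins and matrix through this machinery.

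The promoter elements through which this response is known to act are shown first, because the members that carry them are set against the others below. The ER stress response element, bound by NF-Y and by ATF6 or XBP1, reads CCAAT, 9 bases of any kind, CCACG. It was searched on both strands of the promoter windows of RefSeq (GRCm38.p6, the assembly of mm10), from 250 bases before to 50 bases after each gene's start. Of the 33 members 29 had a window, and 9 of the 29 (31.0%) held the element, against 39 of all 32851 windows (0.119%). Several of these genes served to define the element, so its presence in them is background and not a result. The 31.0% counts genes and the 0.119% counts windows, of which a gene can have more than 1. Counted by gene, 28 genes outside the members held the element and 26968 did not. Shares of the other elements below also set genes beside windows. The elements follow in the direction in which they read CCAAT to CCACG, with these 5-base blocks in capitals.
Hspa5, chr2:34772025-34772043, same strand as the gene: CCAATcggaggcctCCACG
Calr, chr8:84847075-84847093, opposite strand: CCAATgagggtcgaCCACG
Hsp90b1, chr10:86705638-86705656, same strand: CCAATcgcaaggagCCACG
Hsp90b1, chr10:86705533-86705551, opposite strand: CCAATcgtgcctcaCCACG
Canx, chr11:50325800-50325818, same strand: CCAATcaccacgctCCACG
Pdia6, chr12:17266491-17266509, same strand: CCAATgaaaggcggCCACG
Dnajc3, chr14:118937827-118937845, same strand: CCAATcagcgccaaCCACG
Creld2, chr15:88819520-88819538, opposite strand: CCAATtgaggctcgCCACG
Syvn1, chr19:6046532-6046550, same strand: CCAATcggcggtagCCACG
Derl3, chr10:75893242-75893260, opposite strand: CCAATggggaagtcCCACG

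The 250 bases before the start of Hspa5, on its strand (chr2:34771840-34772089), show where the element lies, with its blocks in capitals, 46 bases before the start.
Hspa5 promoter: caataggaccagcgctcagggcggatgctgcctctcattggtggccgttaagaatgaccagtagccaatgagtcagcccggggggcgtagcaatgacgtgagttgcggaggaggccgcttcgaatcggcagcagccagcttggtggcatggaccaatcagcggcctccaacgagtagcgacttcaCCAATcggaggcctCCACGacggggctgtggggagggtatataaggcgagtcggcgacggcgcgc
The shorter element bound by ATF4 with C/EBP proteins, TGATGNAAN, was found in 4 of the 29 members with a window (13.8%), against 3.95% of all windows. Of these genes 3 are ATF4 targets and the fourth, Herpud1, encodes an ERAD adaptor.
Chac1, chr2:119351048-119351056, opposite strand: TGATGCAAC
Asns, chr6:7693224-7693232, same strand: TGATGAAAC
Trib3, chr2:152344039-152344047, opposite strand and just after the start: TGATGTAAA
Herpud1, chr8:94386316-94386324, opposite strand: TGATGCAAC
Another element, TGACGTGG, of the unfolded protein response, was in 0.676% of all windows and in 0 of the members'. The block CCACG alone was in 32.8% of all windows and in 24 of the 29. These are matches of letters in a window, and binding was not measured.

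The transcripts of the folding machinery were abundant in the cornea. Calr had the highest mean over the 8 libraries (255 FPKM), followed by P4hb (182), Pdia3 (157), Hspa5 (138), Manf (106), Atf4 (104) and Hsp90b1 (95.7). The sensors were far lower, with Eif2ak3 at 6.79, Atf6 at 6.30 and Ern1 at 3.31 FPKM. ATF4 targets ran from Chac1 (31.5) to Asns (2.36), and Asns was the lowest tested member. Derl3, an ERAD gene typical of strongly secreting cells, lay between 0.0189 and 0.282 FPKM, on 1 to 15 fragments per library, and was not tested.

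The tissue was checked by its markers. Krt12, the keratin of corneal epithelium, lay between 15153 and 18414 FPKM in all 8 libraries. Of 7 markers of plasma and B cells, which are rich in ER transcripts, 5 were in the table. Jchain, Mzb1 and Tnfrsf17 did not exceed 0.112 FPKM in any library, Cd79a was at 0 in all of them, and Sdc1, which epithelium also expresses, made up nearly all of the list's sum (525 to 580.4 FPKM in ICI, 556 to 582 in Scop). The libraries differed in stroma. The summed FPKM of 11 keratocyte markers ran from 2030 to 2685 in ICI and from 2008 to 2293 in Scop replicates 1, 2 and 4, and was 829 in Scop replicate 3. All 10 tested keratocyte markers had positive log2 fold changes (median 0.43), and 1 of them, Aldh1a1 (0.16), had an unadjusted limma p under 0.05. The 3 tested markers of conjunctiva and goblet cells, Krt4 (-0.34), Agr2 (-0.36) and Krt13 (-0.08), were negative like most members, and 5 of the list's 6 genes were in the table. Their summed FPKM was 1104 to 1175 in ICI, 1029.5 to 1193 in Scop replicates 1, 2 and 4 and 1732 in Scop replicate 3. Of the 7 epithelial markers 6 were negative (median -0.06), from Krt14 at -0.34 and Cldn4 at -0.17 to Aldh3a1 at 0.02, and Cldn4 and Krt4 had an unadjusted p under 0.05. The list summed to 33494 to 35431 FPKM in ICI and 33392 to 38261 in Scop. The part of these cell types in the members' differences was not tested. The summed FPKM of Gm26917, AY036118 and Lars2, loci that collect ribosomal RNA reads, was 3826 to 3995 in ICI, 717 to 1177 in Scop replicates 1 to 3 and 5113 in Scop replicate 4. Their log2 fold changes were 1.45, 1.76 and 1.26, each with an unadjusted limma p under 0.05 (adjusted p = 0.281 to 0.305). The 6 corneal endothelial markers summed to 330 FPKM in ICI replicate 1 and to 220 to 273 in the others. Recovered totals ran from 34354346 to 39885822 fragments per library. In such bulk samples, fewer cells of a type and less RNA per cell cannot be told apart.

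Most of the 32 tested members had slightly lower means in ICI, and none passed the test adjusted over all genes. Of the 32 tested members 30 had a negative log2 fold change, a share to be set beside 55.4% of all 12100 tested genes, and the members' median was -0.18 beside -0.02 for all genes. In limma, 13 members had an unadjusted p under 0.05 with lower values in ICI, that is 40.6% of those tested, against 7.46% of all genes. None was higher at that level, against 4.56% of all genes. The 13 were the chaperone genes Calr, Sdf2l1, Hsp90b1, Hyou1, Dnajc3, Canx, Hspa5 and Dnajb11, the oxidative folding genes Creld2 and Pdia6, the transcription factor gene Xbp1 and the ERAD genes Herpud1 and Syvn1. In 4 members (Calr, Sdf2l1, Pdia6 and Dnajc3) every ICI library lay below every Scop library, as in 4.36% of all tested genes, and in 0 members was every ICI library above, as in 2.63% of all. After Benjamini-Hochberg adjustment over all genes 0 members passed (0.0% of all genes passed), and the smallest adjusted p was 0.166, for Calr. Limma-voom on recovered fragments also counted 0 after adjustment, and 15 lower members without it, where 7.76% of all genes were lower.

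The count of 13 depended on single libraries. It was 8 without ICI replicate 2 and 16 without ICI replicate 1 or without Scop replicate 3. The share of all tested genes that was lower moved too. It was 5.11% without ICI replicate 2, 7.31% without ICI replicate 1 and 9.98% without Scop replicate 3, against 7.46% with all libraries. The members' median log2 fold change lay between -0.21 and -0.13 with any 1 library left out. After quantile normalisation, calls at the unadjusted level among all genes were 717 lower and 728 higher, against 903 and 552 as deposited, while 12 members were lower and 0 higher. With median-ratio scaling the calls were 746 and 674, again with 12 members lower. Calr, Creld2, Dnajc3, Herpud1, Hsp90b1, Hyou1, Pdia6 and Sdf2l1 were lower at an unadjusted p under 0.05 in each of the 19 alternatives computed.

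**Figure D1:**
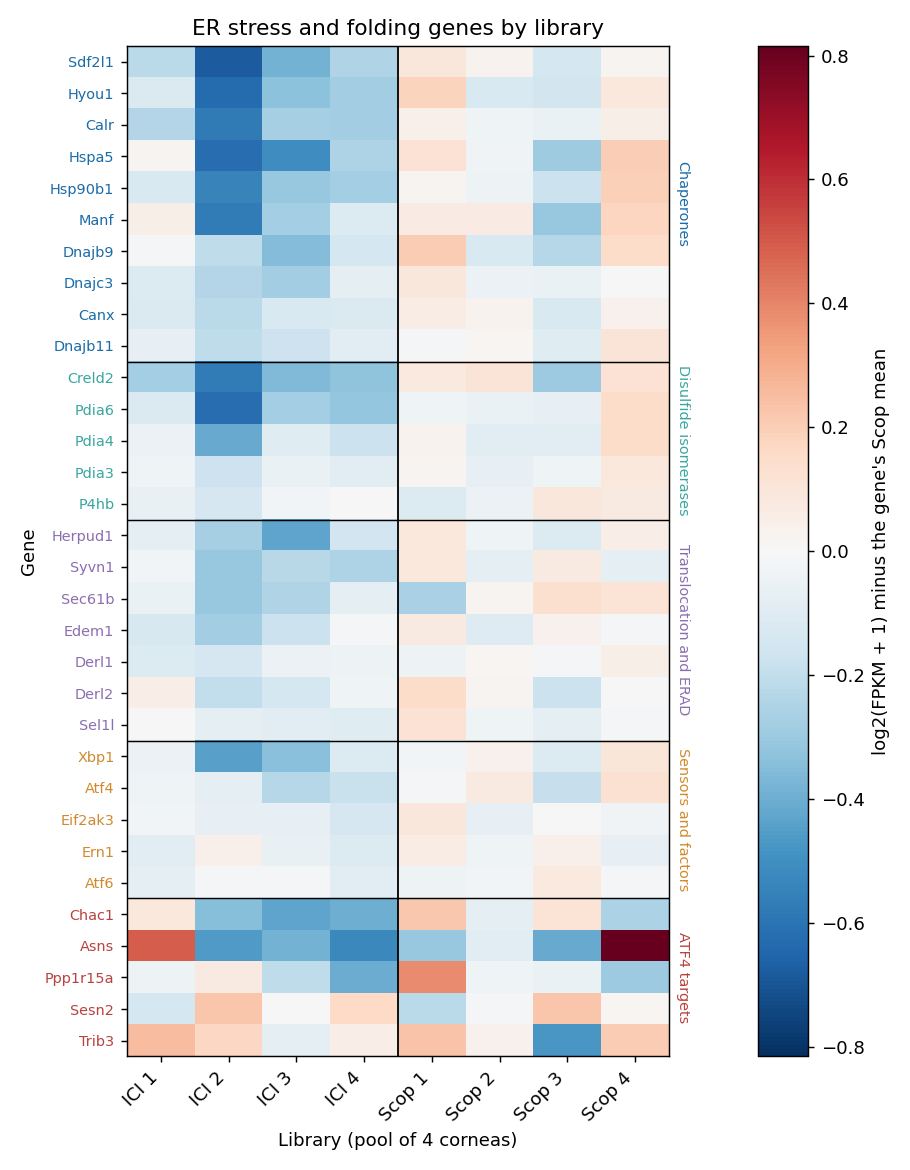
Each cell is a gene's log2(FPKM + 1) in a library minus its mean over the 4 Scop libraries, for the 32 tested genes in rows grouped by role, with the ICI and Scop libraries in columns. Blue cells (lower) fill most of the ICI columns among chaperones and isomerases, with ICI 2 the lowest library for 19 of the 32 genes, while the ATF4 targets at the bottom show no common pattern.

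The libraries of a group also differed among themselves in a shared way. ICI replicate 2 was the lowest of all 8 libraries for 19 of the 32 tested members, and ICI replicate 1 was the highest ICI library for 24. Among the Scop libraries, replicate 3 was the lowest for 20 members and replicates 1 and 4 were the highest for 15 and 13. The mean log2(FPKM + 1) over the 10 chaperones was 5.63, 5.27, 5.42 and 5.53 in ICI replicates 1 to 4 and 5.81, 5.69, 5.56 and 5.82 in Scop. ICI replicate 1 therefore lay above Scop replicate 3, and the other 3 ICI libraries lay below all 4 Scop libraries. Scop replicate 3 was the library with the fewest stromal transcripts. ICI replicate 1 was the one with the most stromal transcripts (a keratocyte sum of 2685 FPKM) and the most endothelial transcripts. Without Scop replicate 3 the members' median was -0.19 and without ICI replicate 1 it was -0.21. Taking out the Scop library lowest for most members, or the ICI library highest for most, is bound to lower this median. It was also -0.19 without Scop replicate 2 and without ICI replicate 4. These values therefore do not bear on the part of stromal or endothelial cells, which was not tested. The ribosomal RNA loci were higher in ICI (median log2 fold change 1.45), so they differed between the groups as the members did, with the other sign. Within Scop they were lowest in replicate 1 and highest in replicate 4, the libraries with the highest levels of most members. Their part in the members' differences was not tested.

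The lectin chaperones bind sugar chains of new glycoproteins. Calr, which encodes the soluble lectin calreticulin (chromosome 8, 84842088 to 84846931 of GRCm38.p6, as for all coordinates), stood at 241, 191, 236 and 234 FPKM in ICI replicates 1 to 4 and at 292, 278, 274 and 294 in Scop. All 4 ICI values were below the lowest Scop value, and ICI replicate 2 was the lowest of the 8. The means were 225 ± 23.1 and 284 ± 9.94 FPKM (mean ± SD, n = 4 in each group, as below), so ICI was at 79.2% of Scop, with a log2 fold change on the log2(FPKM + 1) scale of -0.34 (SE 0.07, limma's adjusted p = 0.166). Canx, which encodes the membrane-bound lectin calnexin (chromosome 11, 50293957 to 50325673), stood at 77.2, 72.0, 76.9 and 77.1 FPKM in ICI and at 87.4, 85.7, 76.6 and 86.0 in Scop. The groups overlapped only through Scop replicate 3, and the log2 fold change was -0.14 (SE 0.05, adjusted p = 0.340).

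BiP and GRP94 are the main chaperones of the HSP70 and HSP90 families in the ER. Hspa5, the gene of BiP (chromosome 2, 34772090 to 34776529), stood at 155, 98.9, 107 and 128 FPKM in ICI and at 166, 149.8, 125 and 176 in Scop. ICI replicate 1 lay among the Scop values and Scop replicate 3 among the ICI values. The means were 123 ± 25.1 and 154 ± 22.1 FPKM, and the log2 fold change was -0.34 (SE 0.14, adjusted p = 0.388). Its fold change was as large as that of Calr, but the spread within each group was wider. Hsp90b1, the gene of GRP94 (chromosome 10, 86690841 to 86705444), stood at 96.8, 72.0, 85.1 and 87.2 FPKM in ICI and at 108, 103, 93.5 and 121 in Scop. Only ICI replicate 1 reached above the lowest Scop value, and the log2 fold change was -0.31 (SE 0.10, adjusted p = 0.282).

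Sdf2l1 encodes a partner of the BiP cofactor Dnajb11, and Hyou1 a large HSP70-like chaperone that exchanges nucleotide on BiP. Sdf2l1 (chromosome 16, 17130138 to 17132383) stood at 7.41, 5.11, 6.48 and 7.26 FPKM in ICI and at 9.44, 8.96, 7.85 and 8.91 in Scop. The groups did not overlap, and the ICI mean was 74.7% of the Scop mean (log2 fold change -0.38, SE 0.10, adjusted p = 0.234). Hyou1 (chromosome 9, 44379490 to 44392369) stood at 20.1, 13.8, 17.2 and 17.9 FPKM in ICI and at 25.0, 20.1, 19.7 and 23.4 in Scop, where ICI replicate 1 overlapped the 2 lower Scop libraries (log2 fold change -0.34, SE 0.11, adjusted p = 0.293).

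The J-domain cofactors of BiP showed smaller differences. Dnajc3, the gene of P58IPK, had no overlap, with 23.7 to 27.4 FPKM in ICI and 28.0 to 31.0 in Scop (log2 fold change -0.18, SE 0.06, adjusted p = 0.305). Dnajb11, which encodes ERdj3, had -0.13 (SE 0.06) and Dnajb9, which encodes ERdj4, had -0.18 (SE 0.11), with adjusted p = 0.407 and 0.534. Manf, a secreted protein of the ER stress response that binds BiP, lay at 75.9 to 117 FPKM in ICI and 91.4 to 128 in Scop (log2 fold change -0.23, SE 0.14, adjusted p = 0.537). Taking the 10 chaperones as a group, 8 were lower at an unadjusted p under 0.05, all 10 had negative values and the median was -0.27, beside 7.46% lower, 55.4% negative and a median of -0.02 over all tested genes.

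**Figure D2:**
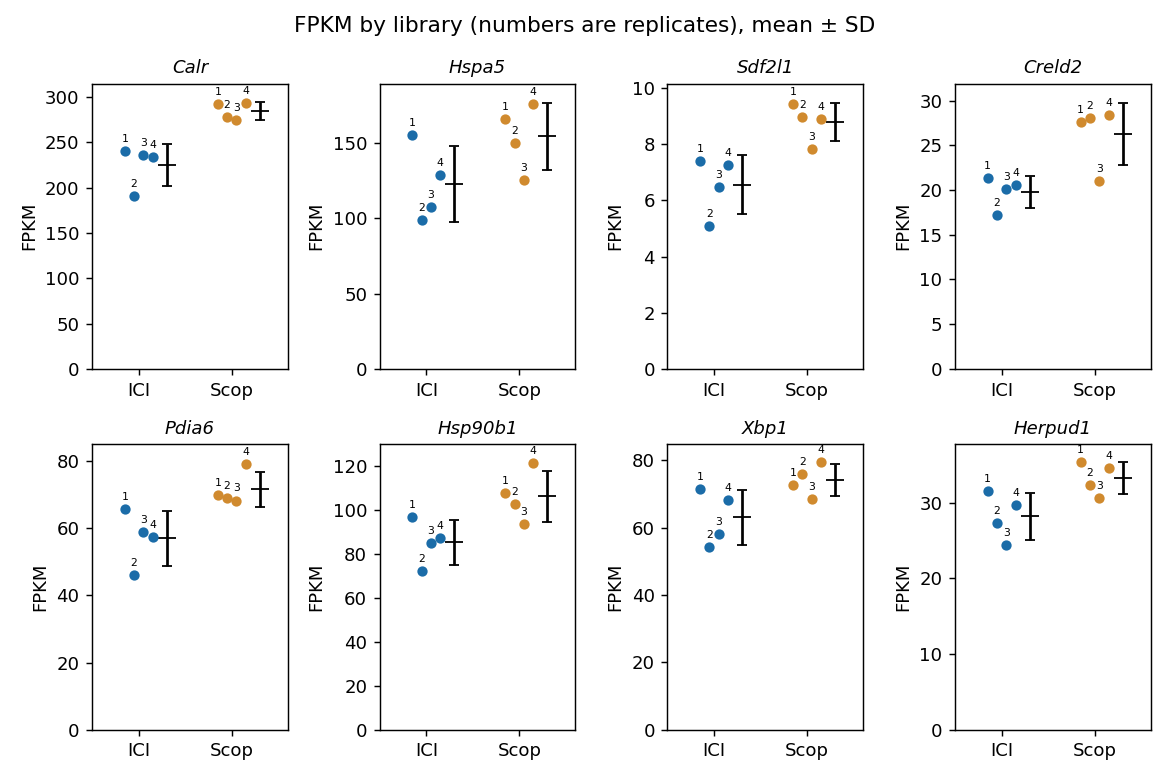
FPKM of 8 folding and stress genes in each library, ICI in blue and Scop in orange, on axes that start at 0, with replicate numbers at the points and the mean ± SD (n = 4) beside them. Calr, Sdf2l1 and Pdia6 have all ICI points below all Scop points, and in Hspa5, Hsp90b1, Creld2, Xbp1 and Herpud1 the groups overlap, mostly through ICI 1 and Scop 3.

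Disulfide bonds are formed and reshuffled by the PDI family. Creld2, an ER stress gene linked to disulfide exchange (chromosome 15, 88819646 to 88826681), had the most negative log2 fold change of all members. It stood at 21.3, 17.2, 20.1 and 20.6 FPKM in ICI and at 27.6, 28.1, 21.03 and 28.4 in Scop. Scop replicate 3 lay with the ICI libraries, and the other 3 Scop libraries lay clear of them. The ICI mean was 75.4% of the Scop mean (log2 fold change -0.38, SE 0.10, adjusted p = 0.214). Without Scop replicate 3 the adjusted p was 0.0795, the smallest of any member in any alternative. Leaving out the Scop library that lay with ICI is bound to widen the difference, so this value adds no evidence for Creld2.

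Pdia6, an isomerase that also acts on the sensors IRE1 and PERK (chromosome 12, 17266589 to 17284785), stood at 65.7, 46.2, 58.9 and 57.4 FPKM in ICI and at 69.9, 68.9, 68.3 and 79.3 in Scop. The groups did not overlap (log2 fold change -0.33, SE 0.10, adjusted p = 0.267). Pdia4 stood at 52.0, 40.3, 50.1 and 47.6 FPKM in ICI and at 54.9, 50.7, 50.4 and 59.8 in Scop, with ICI replicate 1 inside the Scop values (-0.18, SE 0.08, adjusted p = 0.426). The most abundant isomerases differed least. Pdia3, which serves the lectin chaperones, stood at 158, 144, 156 and 153 FPKM in ICI and at 164, 154, 158 and 172 in Scop (-0.09, SE 0.05, adjusted p = 0.525). P4hb, the founding member of the family, lay between 168 and 185 FPKM in ICI and between 172 and 197 in Scop (-0.06, 95% interval -0.18 to 0.07, adjusted p = 0.721).

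Transcripts of the sensors lay close together in the groups. Ern1 stood at 3.12, 3.53, 3.22 and 3.07 FPKM in ICI and at 3.59, 3.30, 3.52 and 3.19 in Scop. Atf6 stood at 6.01, 6.38, 6.36 and 5.97 in ICI and at 6.21, 6.31, 6.83 and 6.32 in Scop. Eif2ak3 stood at 6.84, 6.64, 6.61 and 6.26 in ICI and at 7.53, 6.60, 7.01 and 6.81 in Scop. All 3 overlapped between the groups, and none passed (adjusted p = 0.772, 0.775 and 0.657). The 95% intervals of the log2 fold change were -0.21 to 0.10 for Ern1, -0.18 to 0.08 for Atf6 and -0.21 to 0.06 for Eif2ak3. The transcript level of a sensor does not report its activity, which is set by splicing, cleavage and phosphorylation, and none of these was measured.

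Xbp1, whose mRNA is the substrate of IRE1 and itself a target of ATF6 (chromosome 11, 5520641 to 5525993), stood at 71.5, 54.2, 58.2 and 68.3 FPKM in ICI and at 72.8, 75.9, 68.4 and 79.4 in Scop. Here only ICI replicate 1 lay above the lowest Scop value, and the log2 fold change was -0.24 (SE 0.09, adjusted p = 0.340). Spliced and unspliced forms share nearly all of their sequence and are not separated in the table. Atf4, whose output is set mainly by translation (chromosome 15, 80255184 to 80257545), stood at 106, 103, 92.3 and 95.4 FPKM in ICI and at 108, 114, 95.3 and 118 in Scop, with overlap through Scop replicate 3 (-0.13, SE 0.07, adjusted p = 0.505).

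The ATF4 targets had values of both signs, 3 negative and 2 positive. Chac1, an enzyme that degrades glutathione, stood at 36.4, 26.7, 25.1 and 25.8 FPKM in ICI and at 40.1, 32.4, 37.1 and 28.5 in Scop. Its ICI replicate 1 lay among the Scop values and the others below them (log2 fold change -0.27, SE 0.13, adjusted p = 0.439). Asns, which encodes asparagine synthetase, stood at 3.81, 1.48, 1.62 and 1.38 FPKM in ICI and at 1.76, 2.21, 1.57 and 5.02 in Scop. Its high values were in 1 library of each group, ICI replicate 1 (511 fragments) and Scop replicate 4 (617 fragments), against 177 to 296 fragments in the other 6. With such a spread the log2 fold change was -0.22 (SE 0.29, adjusted p = 0.790), and it was 0.052 without Scop replicate 4.

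Ppp1r15a, which encodes GADD34, the phosphatase subunit that ends the translational block, stood at 17.2, 18.7, 15.2 and 13.2 FPKM in ICI and at 23.5, 17.3, 17.0 and 14.2 in Scop (log2 fold change -0.14, SE 0.14, adjusted p = 0.714). Trib3, a pseudokinase induced by ATF4 and CHOP, stood at 6.58, 6.17, 5.06 and 5.63 FPKM in ICI and at 6.47, 5.52, 3.59 and 6.37 in Scop. It was 1 of 2 members with a positive value (0.10, SE 0.15, adjusted p = 0.807), which was -0.056 without its low library, Scop replicate 3. The other, Sesn2, which encodes a stress-induced inhibitor of mTORC1 signalling, lay between 3.71 and 5.08 FPKM in ICI and between 3.46 and 5.09 in Scop (0.060, SE 0.11, adjusted p = 0.854), and was -0.014 without Scop replicate 1. None of these 5 was lower or higher at an unadjusted p under 0.05.

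**Figure D3:**
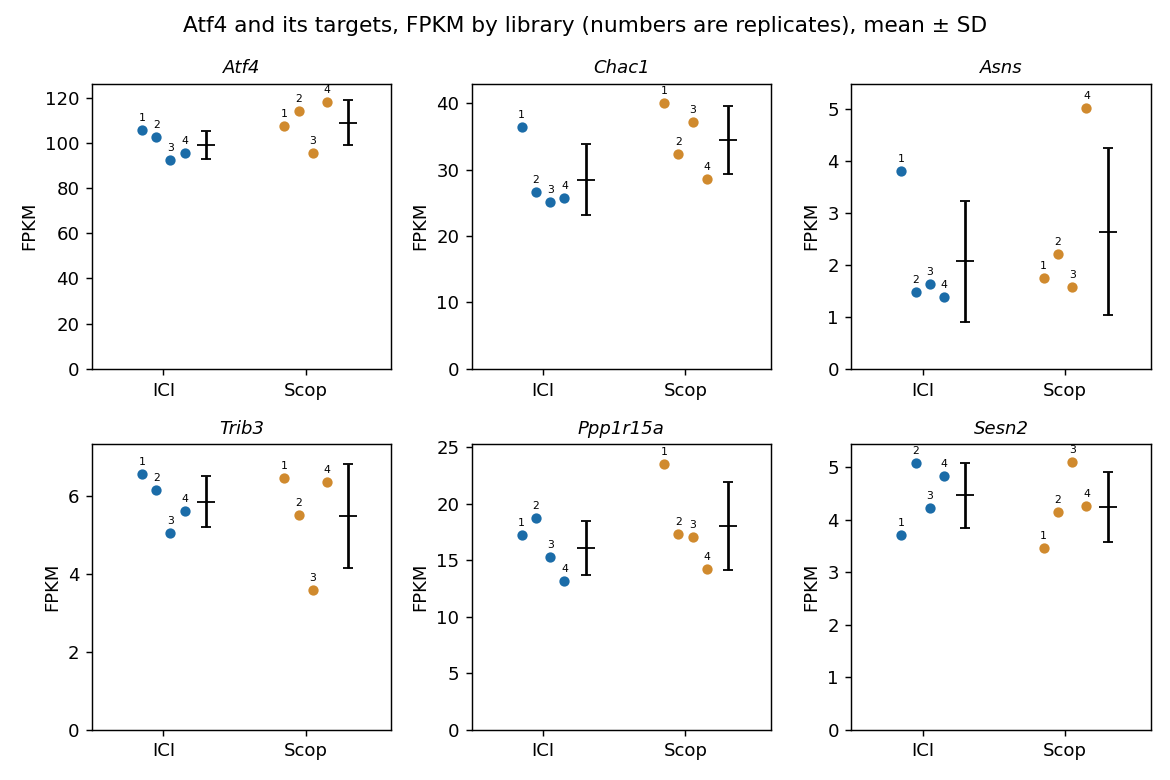
FPKM of Atf4 and 5 of its targets in each library, ICI in blue and Scop in orange, on axes that start at 0, with replicate numbers at the points and the mean ± SD (n = 4) beside them. The groups overlap in every panel, and Asns is high in ICI 1 (3.81 FPKM) and Scop 4 (5.02 FPKM) only.

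ERAD removes misfolded proteins through a membrane channel for degradation in the cytosol. Herpud1, an adaptor of the degradation complex (chromosome 8, 94386429 to 94395371), stood at 31.5, 27.3, 24.4 and 29.7 FPKM in ICI and at 35.4, 32.4, 30.7 and 34.6 in Scop. ICI replicate 1 lay above the lowest Scop value and the other 3 below it (log2 fold change -0.23, SE 0.08, adjusted p = 0.309). Syvn1, the ubiquitin ligase HRD1 (chromosome 19, 6046576 to 6053718), stood at 9.78, 7.85, 8.35 and 8.19 FPKM in ICI and at 10.6, 9.35, 10.5 and 9.34 in Scop, with the same overlap through ICI replicate 1 (-0.20, SE 0.08, adjusted p = 0.343). Edem1, a lectin that marks glycoproteins for removal, stood at 12.2, 10.8, 11.8 and 13.2 FPKM in ICI and at 14.2, 12.4, 13.8 and 13.3 in Scop, with ICI replicate 4 above the lowest Scop value (-0.15, SE 0.07, adjusted p = 0.421).

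Derl1, a channel component, stood at 41.9, 41.1, 43.9 and 44.1 FPKM in ICI and at 44.1, 45.8, 44.8 and 46.9 in Scop (-0.09, SE 0.05, adjusted p = 0.493). Derl2, its paralogue, and Sel1l, the partner of HRD1, had log2 fold changes of -0.08 (SE 0.08) and -0.07 (SE 0.06). Sec61b, a subunit of the translocon through which new proteins enter the ER, stood at 72.6, 60.6, 63.5 and 71.5 FPKM in ICI and at 62.6, 76.7, 82.7 and 81.7 in Scop (-0.17, SE 0.09, adjusted p = 0.501). Its lowest Scop value was in replicate 1, as for P4hb, Atf6, Derl1 and Sesn2, while that library was the highest Scop library for 15 members. All 7 tested genes of this group had negative values, against 55.4% of all genes, and 2 were lower at an unadjusted p under 0.05, against 7.46% of all.

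**Figure D4:**
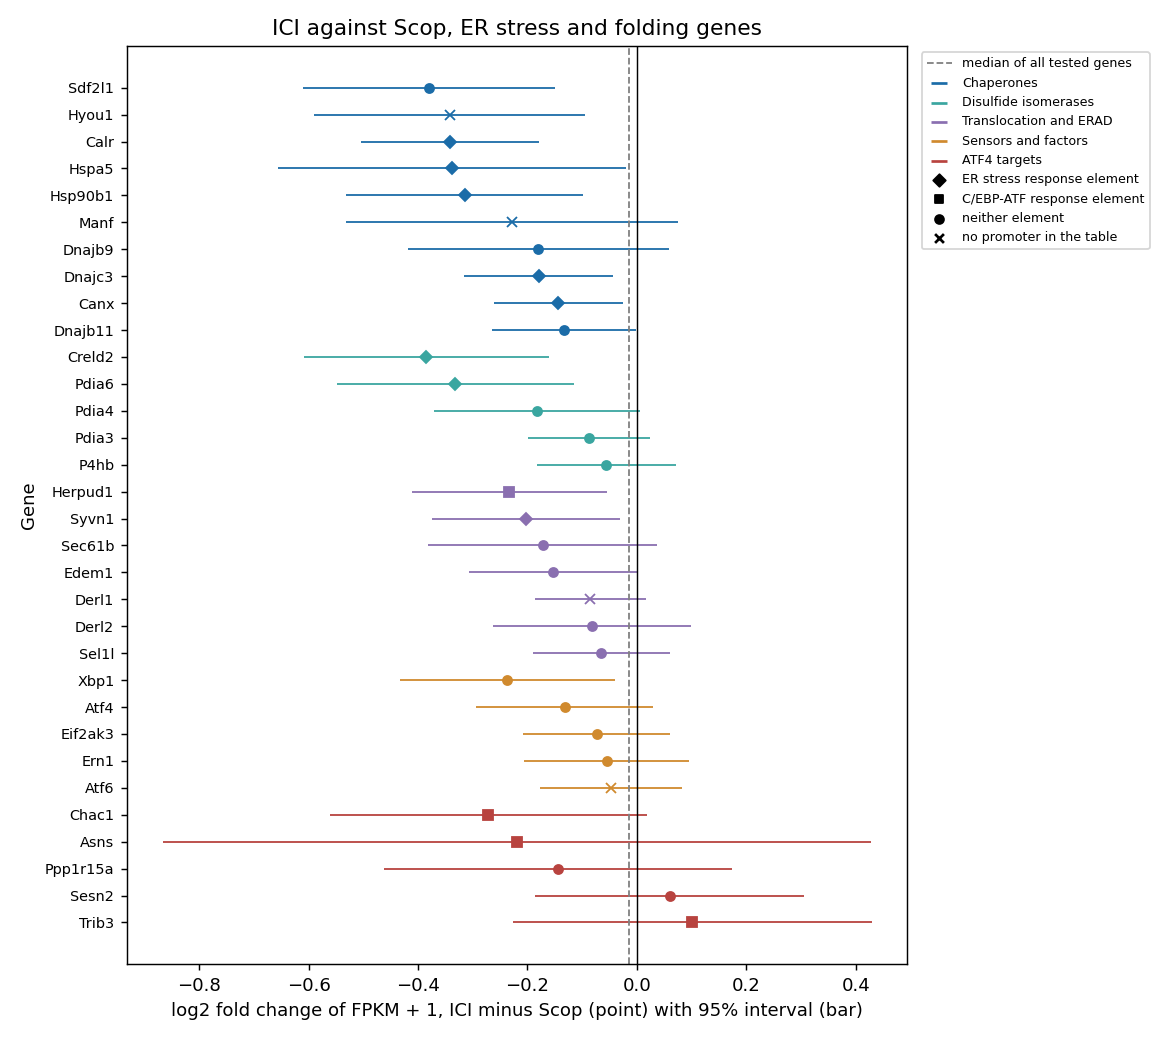
Log2 fold changes of FPKM + 1 (ICI minus Scop) with 95% intervals for the 32 tested genes, coloured by role, with the marker showing which promoter element was found and the dashed line the median of all 12100 tested genes. The diamonds, genes with an ER stress response element, lie at -0.14 or below with intervals under 0, and the ATF4 targets cross 0.

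Set against the promoter elements printed above, the 8 tested members with an ER stress response element were all lower with an unadjusted p under 0.05, and had a median log2 fold change of -0.32, where 7.46% of all tested genes were lower. Of the 20 tested members whose window held no exact match, 4 were lower (Sdf2l1, Herpud1, Xbp1 and Dnajb11) and the median was -0.14. Variants of the element, and copies outside the window, were not searched, so these genes may still carry one. The difference between these sets was not tested, and most of the genes with the element are chaperones. With 1 library left out, 5 to 8 of the 8 and 2 to 7 of the 20 were lower, with the 5 reached without ICI replicate 2 and without Scop replicate 1. In these fits 5.11% (without ICI replicate 2) to 9.98% (without Scop replicate 3) of all tested genes were lower. The 7 of the 20 were counted without Scop replicate 3, where that share was highest. Outside the members, 8 tested genes had the element in their window, and 0 were lower and 2 higher at that level (median 0.01). The 2 are Xlr3a (0.39, SE 0.17) and Xlr3b (1.07, SE 0.26), near-identical copies whose reads may be split between them, named after their values were seen. Among them is Alg12, whose start lies beside that of Creld2 so that both windows hold the same element, and its log2 fold change was -0.07 (SE 0.07, adjusted p = 0.723). The 4 members with the C/EBP-ATF element had a median of -0.23, and 1 of them, Herpud1, was lower.

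Other genes of the same pathways, from lists that hold no member, had medians nearer to that of all genes. Of 25 tested folding genes 0 were lower or higher at an unadjusted p under 0.05 (median -0.04), and the smallest p values belonged to Erp29 (-0.12, SE 0.06), Tor1a (0.14, SE 0.08), Selenof (0.07, SE 0.04) and Txndc11 (-0.15, SE 0.09). Of 31 genes of translocation, N-glycan transfer and export, 4 were lower and 0 higher (median -0.08). These were Kdelr2, a receptor that returns chaperones with a KDEL tail to the ER (35.6 ± 1.66 against 41.1 ± 2.58 FPKM), Sec61a1, the channel of the translocon (55.1 ± 2.55 against 60.4 ± 2.05), Sec23b, a coat subunit of export vesicles (20.3 ± 1.14 against 22.6 ± 1.09), and Rpn1, an oligosaccharyltransferase subunit (42.6 ± 4.52 against 48.2 ± 2.58). Their limma adjusted p ran from 0.267 to 0.390.

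Of 22 further ERAD genes 2 were lower, Aup1 (28.0 ± 0.678 against 31.3 ± 0.702 FPKM) and the conjugating enzyme gene Ube2j2 (11.2 ± 0.944 against 12.8 ± 0.894). Another 2 were higher, the lectin genes Os9 (19.6 ± 0.652 against 17.7 ± 0.872) and Erlec1 (1.56 ± 0.142 against 1.26 ± 0.147), which recognise trimmed glycans. Of 37 regulators and genes of the ATF4 and CHOP branch, 3 were lower and 1 higher. Slc7a5, a transporter of large neutral amino acids, was at 10.1 ± 1.69 against 15.3 ± 1.25 FPKM without overlap (log2 fold change -0.56, SE 0.10, adjusted p = 0.161), and Vldlr, a lipoprotein receptor gene, at 1.19 ± 0.195 against 0.616 ± 0.0953, also without overlap (0.44, SE 0.09, adjusted p = 0.162). Mthfd2, a mitochondrial folate enzyme gene, had -0.45 (SE 0.17) and Aars, an aminoacyl-tRNA synthetase gene, -0.22 (SE 0.08). Over the 4 lists, 9 of 115 tested genes were lower and 3 higher, with a median of -0.05. Those 9 are 7.83% of the 115, a share close to the 7.46% of all genes. Negative values were nonetheless common, in 82 of the 115, beside 55.4% of all genes. By list they were 17 of 25 folding genes, 26 of 31 of translocation and export, 15 of 22 of ERAD and 24 of 37 regulators. In the list of translocation and export 12.9% were lower at an unadjusted p under 0.05.

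Some members share exon bases with another gene in GENCODE M21 (GRCm38), and whether counting used strand is not given in the sources used here. Syvn1 shares 91 bases with Mrpl49 (21.95 FPKM) and Derl2 231 with Mis12 (10.3 FPKM), both on the opposite strand. Eif2ak3 shares 485 bases with Gm43292, Hsp90b1 415 with 1810014B01Rik and Manf 166 with 4930524O07Rik, all on the opposite strand. Hsp90b1 also shares 133 bases with Gm25745 and 63 with Gm15344 on its own strand. The other overlaps found, in 5 further members and again in Manf, were of 11 to 50 bases. Part of the signal of these members may therefore belong to the neighbour, by an amount that was not tested.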

How the data were processed

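Libraries for Illumina sequencing were made with a Vazyme kit from total RNA (Qiagen kit), per the labels' protocols. The authors deposited FPKM values in a single table, 1 column per sample, and columns were matched to samples by title. The submitters' processing notes name fastp, HISAT2, HTSeq and the build mm10. Not given in the sources used here are versions, annotation, scaling between samples and use of strand.

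ICI was compared with Scop by limma 3.58.1 (R 4.3.3; a linear model with a trended empirical Bayes prior) after a log2(FPKM + 1) transform, which understates changes of low genes. The 12100 genes averaging 0.5 FPKM or more were tested, two-sided, with Benjamini-Hochberg adjustment over all of them and a threshold of 0.05. The script was run on simulated data with planted changes larger than those of the members, which does not show its power for changes of the members' size. Whole fragments, used for depth and for limma-voom, were recovered for 99.7% of genes above 0 from the ratios of a gene's values between libraries (relative tolerance 5e-13, whole within 0.01). Where all 8 counts of a gene have a common divisor, its recovered counts are too small by that divisor.

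The members, lists, roles and promoter elements were chosen with earlier results of these data known. Values in every library are given for Hspa5, Hsp90b1, Xbp1, Atf4, Atf6, Ern1 and Eif2ak3 and for the 4 members with the smallest p in each role. They are added for Canx and Sec61b, chosen after their values were seen. Up to 4 genes with the smallest p are named from each other pathway list. Alternatives are given in the closing section.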

Additional observations from a re-analysis of the deposited data

Results flagged for a closer look

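In 7 of the 66 sets of 4 libraries looked at (33 members in each group), 1 library stood apart from the other 3 by more than Dixon's 95% limit, where chance gives about 1 set in 20. ICI replicate 2 was low for Calr (190.7 FPKM, others 233.6 to 240.5) and Canx (71.98, others 76.92 to 77.23). Scop replicate 3 was low for Creld2 (21.03, others 27.55 to 28.36) and Canx (76.64, others 85.66 to 87.37). Scop replicate 4 was high for Pdia6 (79.3, others 68.28 to 69.87). ICI replicate 1 was high for the ATF4 targets Asns (3.81, others 1.379 to 1.624) and Chac1 (36.43, others 25.14 to 26.67).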

How the results depend on the processing

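Other settings tried were a pseudocount of 0.1 or of 5, a filter at 5 FPKM or none, 3 scalings (median-ratio, quantile, equal sums), an untrended or a robust prior, limma-voom, a replicate block, and each library left out in turn. In the alternatives that keep all libraries, 12 to 16 members were lower at an unadjusted p under 0.05 and 0 higher, with medians of -0.18 to -0.14. The share of all genes lower at that level ran from 4.79% (no filter, 33 members tested) to 9.53% (filter at 5 FPKM, 29 members tested). With 1 library left out, 8 (without ICI replicate 2) to 16 members were lower and 29 to 31 had negative values. In these fits 5.11% to 9.98% of all genes were lower. After adjustment 0 to 4 of all genes passed as higher and 0 to 2 as lower, with 0 members among them. Leaving out 1 library turned the sign of 3 members: Sesn2 (-0.014 without Scop replicate 1, range to 0.14), Trib3 (-0.056 without Scop replicate 3, range to 0.18) and Asns (0.052 without Scop replicate 4, range from -0.46). The cause was not tested.

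Replicate numbers are shared by the groups, but same-numbered libraries did not all deviate together (correlations of 0.287, -0.00927, 0.138 and 0.0769 for numbers 1 to 4), so they were not taken as pairs, and not every library correlated best with its own number. With the replicate number as a block, 16 members were lower and 0 higher at an unadjusted p under 0.05, against 7.18% and 5.31% of all genes. The members' median was -0.18, and 0 genes passed after adjustment. Derl3, with 1 to 15 fragments per library and means of 0.109 FPKM in ICI and 0.140 in Scop, fell below the filter of 0.5 FPKM. It entered only the alternative without a filter.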
